A study of Mus musculus with 2 samples.

Results

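Astrocytes wrap brain vessels and the pial surface with flattened processes called endfeet, and they are joined to each other by gap junctions. The endfoot membrane is packed with the water channel Aqp4 and with inward rectifier potassium channels, which are held against the basal lamina by dystroglycan and the dystrophin complex, and it also carries the membrane protein Mlc1 with its adhesion partner Hepacam (GlialCAM). Gap junction channels are built from connexins, of which astrocytes are known for connexin 43 (Gja1) and connexin 30 (Gjb6), while connexin 26 (Gjb2) is known from the leptomeninges. The 9 genes described here are Aqp4, Kcnj10, Kcnj16, Dag1, Mlc1, Hepacam, Gja1, Gjb6 and Gjb2. They were picked by gene symbol for their role, all 9 were found in both count matrices, and they are 9 of the 32285 genes counted.

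Single-cell RNA sequencing was done on 2 libraries of dissociated brain cells, labelled E3 and E4 for the genotypes APOE3 and APOE4. Both came from female mice aged 11 to 12 months in which the mouse Apoe gene had been replaced on both alleles by a human APOE allele, E3 or E4, so that no animal with mouse Apoe was measured. The promoter stayed that of the mouse Apoe gene, and the replacement was present in every cell of the animal. Each library pooled dissociated right hemispheres of 3 mice, without brainstem and cerebellum, so the spread between mice was not measured, no p-value can be given, and genotype and library cannot be told apart.

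The E3 library held 56415229 UMIs (counted transcript molecules) in 11485 barcodes, and the E4 library held 71625170 in 13802. The median UMI count per barcode was 3784 in E3 and 4085 in E4, and 46 barcodes occurred in both libraries. After filtering, 11288 E3 and 13528 E4 cells were grouped with the 9 genes kept out of both the clustering and the naming, and classes were named "-like" from other marker genes. No cluster took the name of mature neurons, while neuroprogenitor-like clusters, one of them led by genes that include Dcx, Stmn2 and Tubb3, were present. Astrocyte-like cells numbered 2860 in E3 and 3383 in E4. They were recognised by 12 other genes, among them Aldoc, Slc1a2 and Slc1a3, and none of these was at 0. Levels are given as UMIs per 1000000 UMIs of a class (CPM), with exact Poisson 95% intervals that cover counting error only. Differences between libraries are given as log2 ratios of CPM with an exact interval of the same kind, and genes were called apart from 0.32 on that scale, in either direction.

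Of the 9 genes, 6 were highest in astrocyte-like cells in both libraries when 11 named classes were ranked, namely Aqp4, Kcnj10, Kcnj16, Hepacam, Gja1 and Gjb6. Among all 11968 genes with enough UMIs to be ranked, 9.16% were highest there. The other 3 genes each peaked elsewhere: Mlc1 in ependymal-like cells, Dag1 in mural-like cells and Gjb2 in meningeal-like cells. These top classes were the same in both libraries for every one of the 9 genes.

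**Figure D1:**
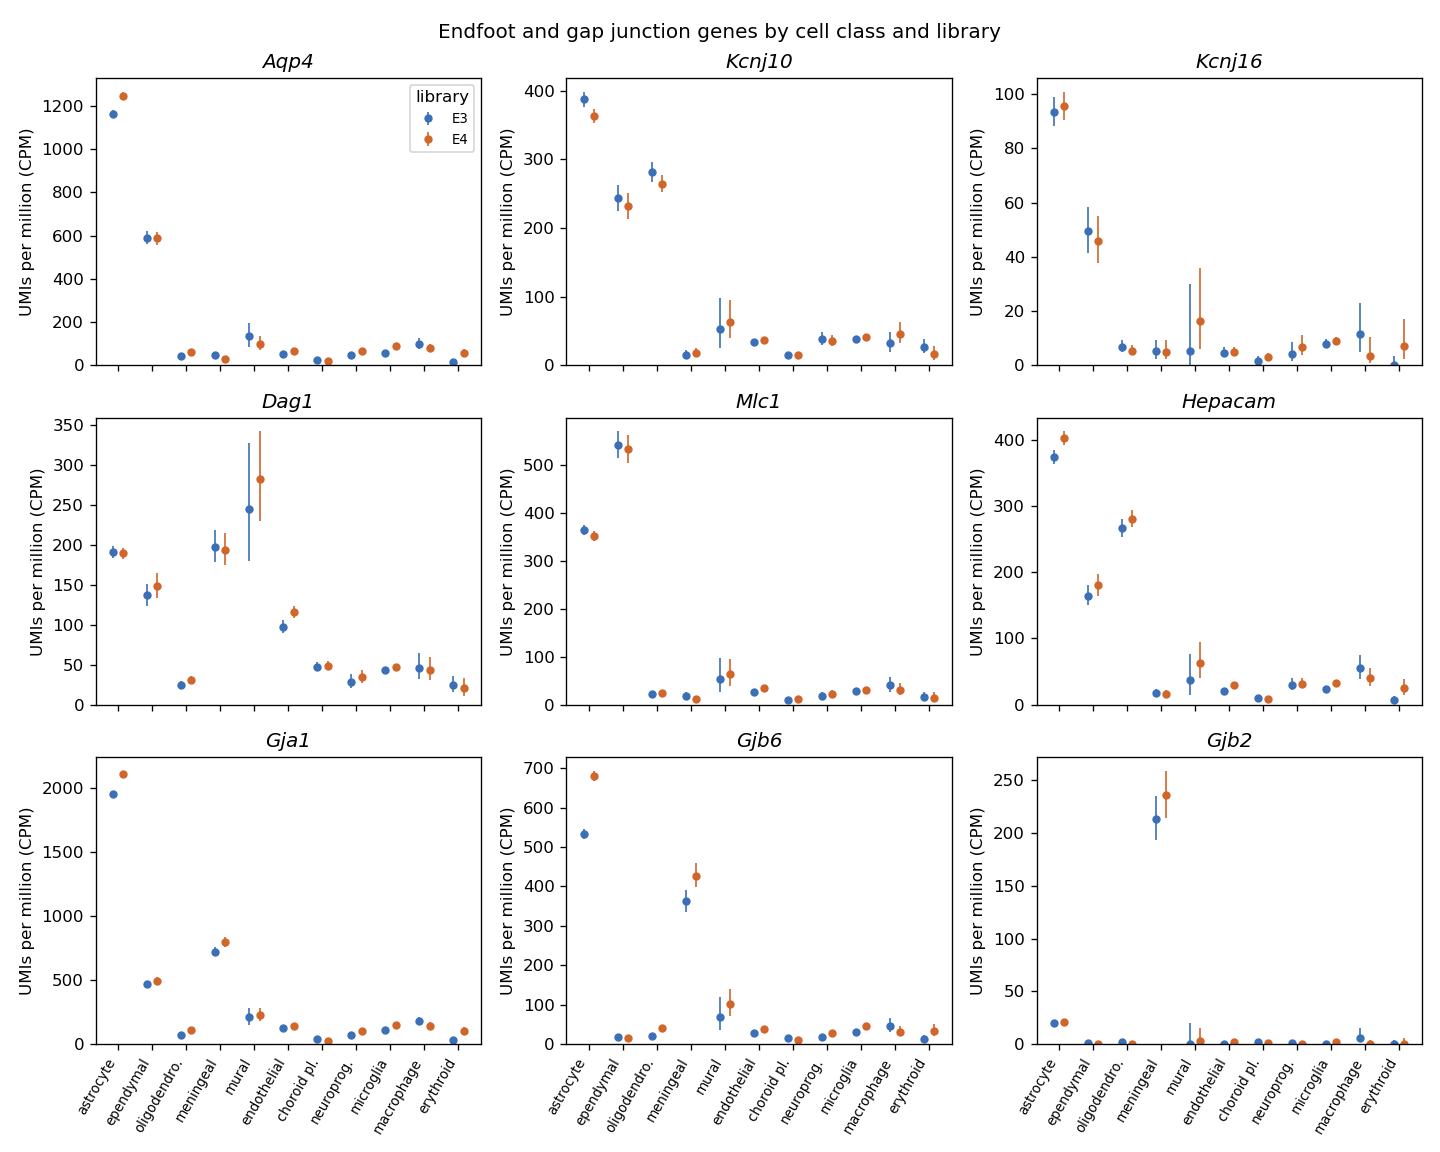
Each panel plots 1 gene: the level (CPM, linear axis from 0) in 11 cell classes, for the E3 and E4 libraries, with exact Poisson 95% intervals. The astrocyte class is highest in 6 panels, whereas Mlc1 peaks in ependymal, Dag1 in mural and Gjb2 in meningeal cells.

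Aqp4 (ENSMUSG00000024411, chromosome 18) encodes the main water channel of the brain. Astrocyte-like cells held 1164 CPM (interval 1145 to 1183) in the E3 library and 1246 CPM (1228 to 1265) in the E4 library. Ependymal-like cells, the ciliated lining of the ventricles, held about 2.05-fold less, namely 591 and 587 CPM. Every other ranked class was at 134 CPM or below. When each cell was thinned to 1000 UMIs, to make depths equal, an Aqp4 UMI was found in 60.3% of E3 and 65.0% of E4 astrocyte-like cells (90.0% and 91.8% before thinning). The share was 2.58% and 3.91% in thinned microglia-like cells (7.76% and 10.5% before thinning), a class that should lack the gene. The median depths were 4138 and 4028 UMIs in astrocyte-like cells and 3734 and 4360 UMIs in microglia-like cells, and thinning left out 58 and 63 astrocyte-like and 76 and 32 microglia-like cells.

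Kcnj10 (ENSMUSG00000044708, mm10 chr1:172341210-172374085, plus strand) encodes Kir4.1, the channel that sets the resting potential of astrocytes and takes up extracellular potassium. Astrocyte-like cells held 387 (E3) and 363 CPM (E4). Oligodendrocyte-like cells followed with 281 and 265 CPM, and ependymal-like cells with 243 and 231 CPM, and the intervals of these 3 classes did not overlap within either library. All remaining ranked classes were at 63.2 CPM or below. Kcnj10 was therefore shared by 3 glial classes, unlike Aqp4, whose oligodendrocyte-like level of 42.8 and 61.7 CPM lay in the range of microglia-like cells (57.0 and 88.2 CPM).

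Kcnj16 (ENSMUSG00000051497, mm10 chr11:110968033-111027968, plus strand) encodes Kir5.1, a subunit that pairs with Kir4.1. Astrocyte-like cells held 93.4 (E3) and 95.6 CPM (E4), and ependymal-like cells 49.3 and 45.8 CPM. In oligodendrocyte-like cells only 6.77 and 5.29 CPM were found, so that the class that held Kcnj10 at 72.6% and 72.9% of its astrocyte-like level held Kcnj16 at 7.25% and 5.53%. Oligodendrocyte precursor-like cells, 46 in E3 and 41 in E4, held Kcnj10 at 41.7% and 47.1% and Kcnj16 at 33.9% and 23.8%, the latter from 11 and 8 UMIs.

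Hepacam (ENSMUSG00000046240, mm10 chr9:37367351-37386575, plus strand) encodes the adhesion molecule that brings Mlc1 to cell junctions. Astrocyte-like cells held 374 (E3) and 402 CPM (E4), oligodendrocyte-like cells 266 and 280.1 CPM, and ependymal-like cells 164 and 180.0 CPM. The order of these 3 classes was that of Kcnj10, and no pair of neighbours in it overlapped.

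Mlc1 (ENSMUSG00000035805, mm10 chr15:88955884-88979007, minus strand) encodes the protein that is mutated in megalencephalic leukoencephalopathy with subcortical cysts. Ependymal-like cells held the most, 543 CPM (516 to 571, E3) and 534 CPM (505 to 564, E4). Astrocyte-like cells held 366 CPM (356 to 377) and 352 CPM (343 to 362.2), so that the class means were 1.499-fold apart. Oligodendrocyte-like cells, which held its partner Hepacam, were at 22.8 and 24.5 CPM of Mlc1, against 29.1 and 31.5 CPM in microglia-like cells.

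Dag1 (ENSMUSG00000039952, mm10 chr9:108204634-108263958, minus strand) encodes dystroglycan, the receptor that binds laminin, agrin and perlecan in the basal lamina. It was the most widely spread of the 9 genes over classes. Mural-like cells held 246 CPM (180.0 to 328, from 46 UMIs, E3) and 283 CPM (231 to 343, E4), meningeal-like cells 198 and 194 CPM, and astrocyte-like cells 191 and 189.8 CPM. The meningeal-like and astrocyte-like intervals overlapped, and in E3 the mural-like interval overlapped both, so that the order of these 3 classes was not resolved there. Ependymal-like cells followed at 137 and 149 CPM and endothelial-like cells at 97.4 and 116 CPM. A cluster of 118 E3 and 202 E4 cells passed 8 of 8 mural and 8 of 8 endothelial markers, so it was called mixed and not ranked. It held Dag1 at 179 and 201 CPM, so the mural-like peak covers only the mural cells outside that cluster.

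Gja1 (ENSMUSG00000050953, mm10 chr10:56377330-56402513, plus strand) encodes connexin 43, and astrocyte-like cells held 1958 CPM (1934 to 1983, E3) and 2113 CPM (2090 to 2137, E4). Meningeal-like cells, fibroblasts and related cells of the brain coverings, held 723 and 798 CPM, and ependymal-like cells held 466 and 494 CPM. After thinning, a Gja1 UMI was found in 82.2% and 84.1% of astrocyte-like, 43.3% and 44.9% of meningeal-like and 34.8% and 37.6% of ependymal-like cells, against 4.23% and 5.998% of microglia-like cells.

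Gjb6 (ENSMUSG00000040055, mm10 chr14:57123303-57133611, minus strand) encodes connexin 30 and shared its 2 highest classes with Gja1. Astrocyte-like cells held 533 (E3) and 680.0 CPM (E4), and meningeal-like cells 362.3 and 428 CPM. In ependymal-like cells it was at 17.9 CPM (13.2 to 23.7) and 15.3 CPM (10.8 to 21.1), below the microglia-like level of 30.3 and 46.6 CPM. Ependymal-like cells thus held Gja1 with little Gjb6.

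Gjb2 (ENSMUSG00000046352, mm10 chr14:57098600-57104702, minus strand) encodes connexin 26 and was highest in meningeal-like cells by far. They held 213 CPM (193 to 235, E3) and 236 CPM (214 to 259, E4), and a UMI was present in 61.4% and 60.8% of them (18.3% and 21.6% after thinning). Astrocyte-like cells held 20.01 and 21.3 CPM, which was 10.9-fold less on the class means, and a UMI was present in 8.01% and 8.16% of them (1.78% and 2.05% after thinning), against 0.0954% and 0.153% of thinned microglia-like cells. No other ranked class was above 5.78 CPM. Of the markers of meningeal cells, 9 of 9 in E3 and 8 of 9 in E4 were above 0 in astrocyte-like cells, with a summed level of 41.3 and 43.8 CPM. Their part in the astrocyte-like Gjb2 level was not tested.

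Gjb2 and Gjb6 are neighbours. They lie on the same strand of chromosome 14 with 18.6 kb between them, and the annotation places 1 gene, Gm4491, in that gap. Meningeal-like cells held both, while astrocyte-like cells held mainly Gjb6. The 250 bases before each annotated start are shown because the pair differed so much between these classes. They come from RefSeq on GRCm38.p6, are written from 5′ to 3′ on the gene strand, and cover chr14:57133612-57133861 for Gjb6 and chr14:57104703-57104952 for Gjb2. Capitals mark the GC box, GGGCGG, on either strand.
Gjb6: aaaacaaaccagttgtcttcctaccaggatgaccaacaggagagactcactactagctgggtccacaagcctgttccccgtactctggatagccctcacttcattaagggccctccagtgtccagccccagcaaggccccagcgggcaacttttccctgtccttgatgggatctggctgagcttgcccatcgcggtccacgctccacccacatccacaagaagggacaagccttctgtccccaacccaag
Gjb2: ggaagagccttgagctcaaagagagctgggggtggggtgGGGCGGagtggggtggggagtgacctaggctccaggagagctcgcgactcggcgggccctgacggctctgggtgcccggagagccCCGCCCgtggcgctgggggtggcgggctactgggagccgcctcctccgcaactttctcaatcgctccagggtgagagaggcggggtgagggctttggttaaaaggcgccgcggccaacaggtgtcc
The Gjb2 window holds 2 GC boxes, which begin 211 and 126 bases before the start, and the Gjb6 window holds none. A GC box was found in 32.7% of 32851 windows of this length. A TATA box (TATAAA) was in neither window on either strand and in 12.4% of all windows. The nuclear factor I sequence (TTGGCA) was absent from both and present in 12.3% of all. The same held for the SOX sequence (ACAAAG), which 16.5% of all windows hold. The G and C content was 69.2% for Gjb2 and 56.8% for Gjb6, against a median of 52.4% over all windows.

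Free RNA in a cell suspension gives UMIs of abundant astrocyte genes in droplets of other classes. The 12 astrocyte naming genes gave a yardstick: for each class, the level of each gene was expressed as a percent of its astrocyte-like level, and the 9 genes were set beside the median percent of the 12. In ependymal-like cells that median was 9.16% in E3 and 7.99% in E4. Of the 9 genes, 6 lay at 3 times the median or more in both libraries, namely Mlc1 (148% and 151%), Dag1 (71.6% and 78.3%), Kcnj10 (62.8% and 63.7%), Kcnj16 (52.8% and 48.0%), Aqp4 (50.7% and 47.1%) and Hepacam (44.0% and 44.8%). Gja1, at 23.8% and 23.4%, was above the median by less than this limit, and Gjb6 lay below it at 3.36% and 2.25%. The ependymal-like cells therefore held the water and potassium channels and the Mlc1 pair, but little Gjb6.

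In oligodendrocyte-like cells the marker median was 4.93% and 6.84%, and 2 of the 9 genes passed the limit. Kcnj10 was at 72.6% and 72.9% and Hepacam at 71.1% and 69.7%. Gja1 (3.77% and 5.20%), Aqp4 (3.67% and 4.95%), Gjb6 (3.98% and 6.07%) and Mlc1 (6.23% and 6.96%) lay among the marker values. In meningeal-like cells, with a marker median of 4.48% and 4.08%, the 4 genes past the limit were Gjb2 (1065% and 1107%), Dag1 (103% and 102%), Gjb6 (68.0% and 62.9%) and Gja1 (36.9% and 37.8%), while Aqp4, Kcnj10, Kcnj16, Mlc1 and Hepacam lay between 2.43% and 5.53%. Outside these classes only Dag1 passed, in mural-like, endothelial-like, choroid plexus-like and microglia-like cells, apart from Kcnj10, Kcnj16 and Dag1 in the small oligodendrocyte precursor-like class.

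**Figure D2:**
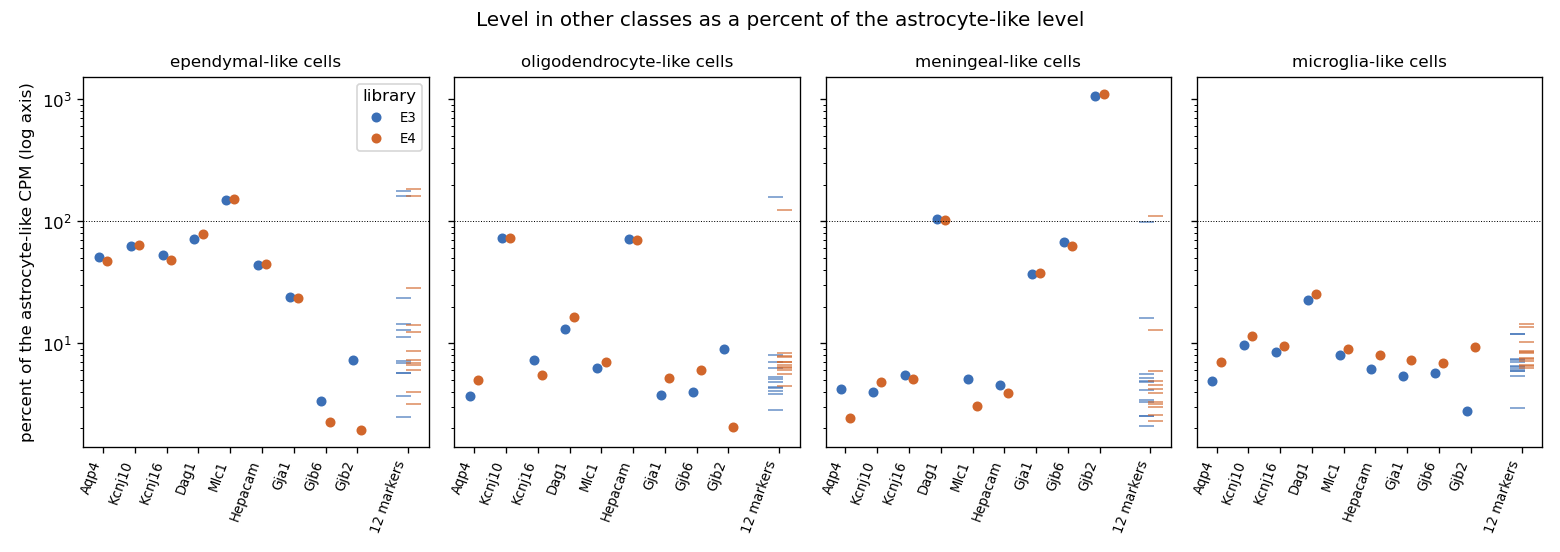
The level of each gene in 4 classes is plotted as a percent of its astrocyte-like level (log axis, dotted line at 100%), with 1 point per library, beside dashes for the 12 astrocyte naming genes, a few of which lie near or above the dotted line. Ependymal cells share the channels, oligodendrocytes share Kcnj10 and Hepacam, meningeal cells share the connexins and Dag1, and in microglia Dag1 is the highest of the 9, at 22.4% and 25.1%.

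In endothelial-like cells, the cells that endfeet contact, 1 of 3 clusters (44 E3 and 80 E4 cells) also passed astrocyte markers, with a summed astrocyte marker level of 12290 and 11672 CPM, against 603 and 731 CPM in the largest endothelial-like cluster. That small cluster gave 76.6% and 76.5% of the Aqp4 UMIs, 58.9% and 66.8% of the Gja1 UMIs and 68.1% and 78.0% of the Gjb6 UMIs of the class. Without it, Aqp4 was at 12.5 and 16.7 CPM and Gja1 at 54.9 and 52.7 CPM in endothelial-like cells, whereas Dag1 was still at 95.3 and 107 CPM. Whether its droplets held endothelial cells with attached endfeet or more than 1 cell was not tested.

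Across the 22 values given by 11 classes in 2 libraries, which share library and depth, Pearson's r of log2(CPM + 1) was 0.96 for Kcnj10 with Hepacam, 0.96 for Aqp4 with Mlc1 and 0.95 for Aqp4 with Kcnj16. It was 0.84 for Gja1 with Gjb6, 0.81 for Gjb6 with Gjb2 and 0.15 for Aqp4 with Gjb2. Among all genes ranked, the pattern most like that of Aqp4 was that of Rfx4, a transcription factor (r = 0.98), then Slc25a18 and Nkain4. Kcnj10 was most like Hepacam, Megf10 (a phagocytic receptor) and Igsf11, and Hepacam most like Megf10, Kcnj10 and Fgf1. Kcnj16 was most like Aqp4, Arhgef26 and Fam181a, and Mlc1 most like Slc25a18, Ngef and Mro. Gja1 was most like Ppp1r3c (which targets glycogen metabolism), Lxn and Plpp3, and Gjb6 most like F3 (tissue factor, r = 0.97), Slc7a11 (the cystine transporter) and Scara3. Gjb2 was most like Prrx2, Efemp1 and Col1a1, the last a fibrillar collagen gene, and Dag1 most like Cdc42ep4, Hes1 and Nr1d1.

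Astrocyte-like cells from different brain regions differed in some of the 9 genes. Sub-clusters were assigned by regional markers that include none of the 9, which gave 1347 E3 and 1600 E4 telencephalic astrocyte-like cells (cortex, hippocampus and striatum) and 1072 E3 and 1387 E4 non-telencephalic ones. Telencephalic cells held Kcnj10 at 217 (E3) and 222 CPM (E4) and non-telencephalic cells at 693 and 590.1 CPM, a log2 difference of 1.67 (1.58 to 1.77) and 1.41 (1.32 to 1.495). Aqp4 was at 918 and 979 CPM against 1428 and 1657 CPM, a log2 difference of 0.64 (0.59 to 0.69) and 0.76 (0.72 to 0.81). Gjb2 was at 14.1 and 16.1 CPM against 30.5 and 28.7 CPM, a log2 difference of 1.11 (0.72 to 1.52) and 0.84 (0.48 to 1.20). These 3 of the 9 genes were at least 1.5-fold apart in the same direction in both libraries, where 11.2% of all 9144 genes with enough UMIs were.

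Gjb6 was higher in non-telencephalic cells by 0.52 and 0.53 on the log2 scale, Kcnj16 by 0.32 and 0.54, Dag1 by 0.31 and 0.40, Gja1 by 0.23 and 0.28. For Mlc1 the differences were 0.21 and 0.11, and their sign depended on a single sub-cluster, described next. Hepacam was the most even, with differences of -0.04 (-0.13 to 0.05) and 0.03 (-0.05 to 0.11). Over all genes the median difference was -0.02 and 0.00. Kcnj10 and Hepacam, which had nearly the same pattern over cell classes, thus did not share their regional pattern. One non-telencephalic sub-cluster (122 E3 and 53 E4 cells) also passed 3 of 8 oligodendrocyte markers. It held Kcnj10 at 929 and 794 CPM and Mlc1 at 664 and 815 CPM, and without it the Kcnj10 difference was 1.55 and 1.37. The Mlc1 difference turned to -0.08 and -0.04 without it, and with cells thinned to 1000 UMIs it was -0.03 and 0.02.

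Astrocyte-like cells high in Gfap were a small and mixed group of 141 E3 and 95 E4 cells, 4.93% and 2.81% of the class. One of its 2 sub-clusters (49 and 34 cells) was led by Myoc and Gfap and held Aqp4 at 4092 (E3) and 3987 CPM (E4), against 1164 and 1246 CPM in the whole class. The same cells held Mlc1 at 746 and 812 CPM, but Gjb6 at only 125 and 160.3 CPM, from 49 and 30 UMIs, and Gja1 at 1113 and 962 CPM. The other sub-cluster (92 and 61 cells) had Thbs4 among its leading genes and held less of both astrocyte connexins than the whole class, with Gja1 at 934 and 808 CPM and Gjb6 at 141 and 118 CPM. Kcnj16 was at 5.09 (1.05 to 14.9) and 21.0 CPM (9.06 to 41.4), from 3 and 8 UMIs, and Aqp4 was at 649 and 546 CPM. In both sub-clusters Gjb6 lay below its level in all 5 telencephalic and non-telencephalic sub-clusters, while Aqp4 was above the class level in the first and below it in the second. A further sub-cluster without a regional name (114 and 132 cells, led by Crym) held Gja1 at 1931 and 2112 CPM, near the class level, but Kcnj10 at 133 and 161 CPM and Kcnj16 at 21.1 and 25.5 CPM. The smallest sub-cluster plotted (20 and 38 cells, with Rax among its leading genes) had been kept in the class but passed 5 of 7 ependymal markers, and it held Gjb6 at 69.9 and 190.3 CPM, between the ependymal-like and the astrocyte-like levels.

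**Figure D3:**
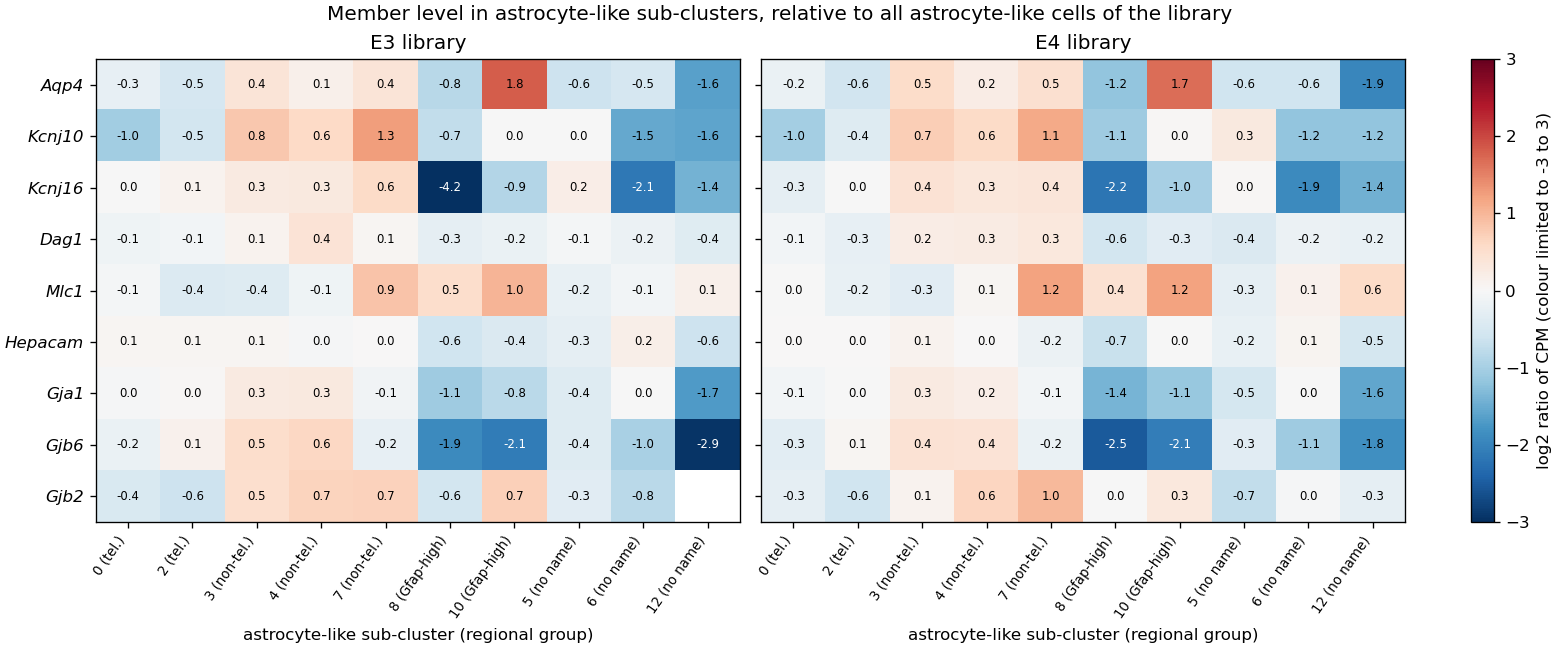
The level of each gene in 10 astrocyte-like sub-clusters is shown for each library as the log2 ratio to all astrocyte-like cells of that library, with the value in each cell of the grid. Kcnj10 is above 0 in the non-telencephalic sub-clusters and below 0 in the telencephalic ones in both libraries. Aqp4 stands out in sub-cluster 10, and Gjb6 is lowest in sub-clusters 8, 10 and 12, the last of which passed 5 of 7 ependymal markers. No ratio is given where no Gjb2 UMI was found.

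Between the genotypes, the 9 genes differed little in astrocyte-like cells, apart from Gjb6. Its level of 533 CPM (521 to 546) in the E3 library stood against 680.0 CPM (667 to 694) in the E4 library, a log2 ratio of 0.35 (0.31 to 0.40) or 1.28-fold. A Gjb6 UMI was found in 39.7% of E3 and 48.9% of E4 thinned astrocyte-like cells (79.8% and 85.8% before thinning), against 1.81% and 2.14% of thinned microglia-like cells. Gjb6 was the only one of the 9 called apart, as were 5.96% of 9621 genes, and it lay above 97.6% of them. The 12 naming genes of the class ranged from -0.83 (Gfap) to 0.17 (Slc4a4), all below Gjb6. In each of the 6 sub-clusters with at least 100 cells per library Gjb6 was higher in E4, by 0.14 to 0.39, and in 5 of them the interval lay above 0. With these 6 sub-clusters weighted alike the log2 ratio was 0.27, and over every cell with at least 2 Aldoc UMIs it was 0.28, both under the limit for a call.

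The remaining 8 genes lay between -0.09 and 0.11 on the log2 scale. Gja1 was higher in E4 by 0.11 (0.09 to 0.13), Hepacam by 0.10 (0.05 to 0.16) and Aqp4 by 0.10 (0.07 to 0.13). Kcnj10 was lower in E4 by -0.09 (-0.15 to -0.04). The intervals of Gjb2 (0.09), Kcnj16 (0.03), Dag1 (-0.01) and Mlc1 (-0.05) included 0. In all, 6 of the 9 were higher in E4, with a median of 0.09, where 52.4% of all genes were higher and their median was 0.01. The intervals carry no spread between mice.

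Meningeal-like cells, 176 in E3 and 189 in E4, also held the connexins, but they come from the same 2 libraries and are no independent check. Gjb6 was higher in E4 there by 0.24 (0.09 to 0.39), Gja1 by 0.14 (0.04 to 0.25) and Gjb2 by 0.15 (-0.05 to 0.34), while Dag1 was at -0.03. Of all genes of the class, 51.5% were higher in E4, with a median of 0.01. The astrocyte naming genes had a summed level of 1412 and 1341 CPM in this class, a log2 ratio of -0.07 (-0.15 to 0.00). In ependymal-like cells, 3 of the 7 genes with enough UMIs were higher in E4, with a median of -0.01 and every interval including 0, where 51.3% of all genes were higher and their median was 0.01.

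In classes where most of the 9 lay near the percent of the naming genes, many genotype ratios were larger. Most had the sign of the median of the astrocyte naming genes, but some lay above all of these. In microglia-like cells 8 of 8 genes with enough UMIs were higher in E4, with a median of 0.35, and so were 12 of 12 naming genes, with a median of 0.32, where 63.5% of all genes were higher. The largest were Aqp4 at 0.63, Gjb6 at 0.62 and Gja1 at 0.53, where the highest naming gene was at 0.60. In oligodendrocyte-like cells Gjb6 was at 0.96 (0.65 to 1.28), Gja1 at 0.57 and Aqp4 at 0.53, where 58.2% of all genes were higher. Of the naming genes 9 of 10 were higher, with a median of 0.51 and a range of -0.50 to 0.79, all below Gjb6. Their summed level was 1741 and 1861 CPM, a log2 ratio of 0.10. The 2 genes these cells held in quantity stayed near 0, Kcnj10 at -0.09 (-0.19 to 0.01) and Hepacam at 0.07 (-0.02 to 0.17). In endothelial-like cells 7 of 7 were higher, where 62.6% of all genes were. Without the cluster that passed astrocyte markers, Gja1 went from 0.21 to -0.06, Gjb6 from 0.45 to -0.04 and Hepacam from 0.54 to -0.01. The other 4 kept their sign, with Aqp4 going from 0.37 to 0.41 (-0.02 to 0.86), Mlc1 from 0.43 to 0.36 (-0.04 to 0.77), Dag1 from 0.25 to 0.17 (0.01 to 0.33) and Kcnj10 from 0.17 to 0.15 (-0.23 to 0.55). In macrophage-like cells only Gja1 had enough UMIs, at -0.31 (-0.68 to 0.06), where 56.7% of all genes were higher. Of the naming genes 1 of 4 was higher there, with a median of -0.21. The part of free astrocyte RNA in these ratios was not tested.

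**Figure D4:**
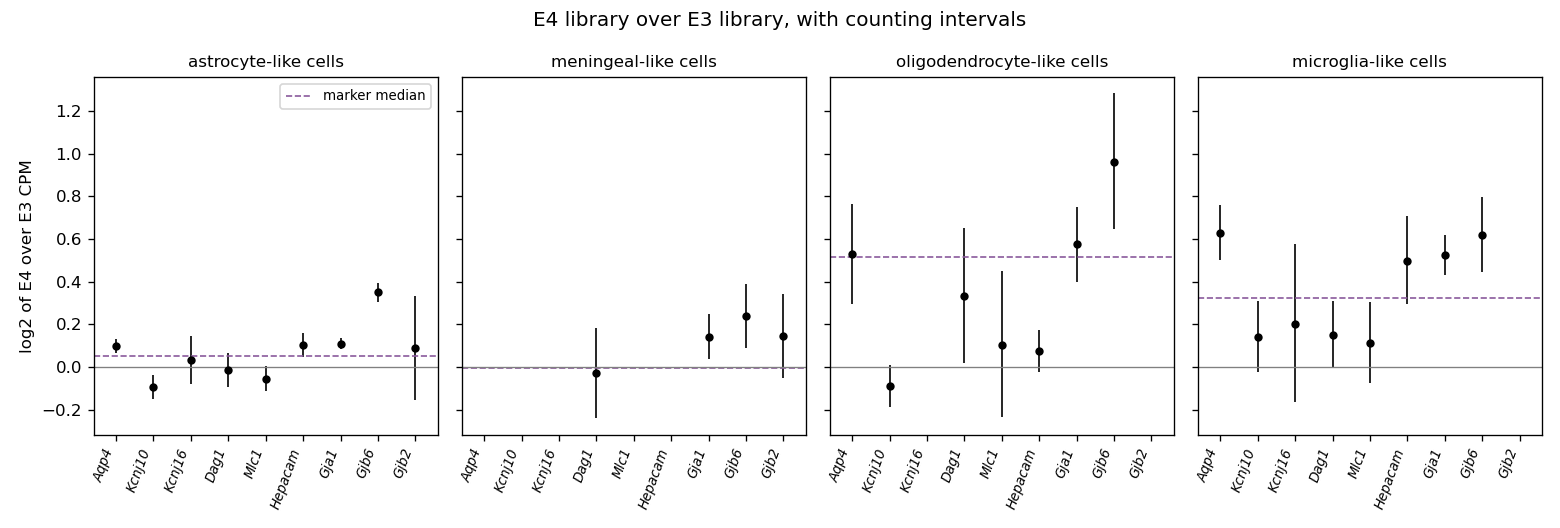
The log2 ratio of E4 over E3 is plotted for each gene with at least 200 UMIs, with its 95% counting interval, in 4 classes, and the dashed line is the median of the astrocyte naming genes. Gjb6 is above 0 in all 4 panels, and in oligodendrocyte and microglia cells the connexins and Aqp4 lie near or above a marker median that is itself above 0.

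The dystrophin complex, which ties dystroglycan to the cytoskeleton inside the endfoot, was listed with 16 genes, of which 9 had enough UMIs in astrocyte-like cells. Dtna (alpha-dystrobrevin) was highest in astrocyte-like cells of all classes, with 470.3 (E3) and 469.9 CPM (E4). Dmd (dystrophin) was at 210.3 and 233 CPM but higher in mural-like cells, at 449 and 409 CPM, and Utrn (utrophin) was mainly endothelial, at 832 and 896 CPM. Between genotypes 7 of the 9 were higher and 2 lower in E4, with a median of 0.09, and 2 were called apart, Sgce (0.35) and Dtnb (0.41, from 130 and 194 UMIs). For this and the lists that follow, the share over all genes of the class was 52.4% higher and 5.96% called apart.

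Of 14 ligands of dystroglycan, 4 had enough UMIs, with 2 higher and 2 lower in E4. They were Lama2 at 47.8 and 52.6 CPM, Lamb2 at 38.3 and 31.6 CPM, Agrn at 34.2 and 32.1 CPM and Lamc1 at 7.86 and 9.29 CPM, and none of the 14 was highest in astrocyte-like cells in both libraries. Of 18 genes listed for the glycosylation of dystroglycan, 16 were in the files and had enough UMIs, 12 were higher and 4 lower in E4 and none was called apart, with a median of 0.07. B4gat1 (0.27), Pomt1 and Pomt2 were highest in astrocyte-like cells, and the other genes named by level were Dpm1 (146 and 145 CPM), Dpm3 (109 and 100.3 CPM) and Rxylt1 (73.1 and 74.2 CPM).

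Among 8 partners of Mlc1 and Hepacam, Gpr37l1, an orphan receptor of astrocytes, was highest in astrocyte-like cells, with 1375 (E3) and 1551 CPM (E4, log2 ratio 0.17, 0.14 to 0.20). Atp1b1 was at 229 and 216 CPM, Gprc5b at 170 and 163 CPM and Gpr37 at 69.0 and 76.4 CPM, the last far lower than in oligodendrocyte-like cells (504 and 582 CPM). In all, 4 of 6 with enough UMIs were higher in E4, with a median of 0.11 and none called apart.

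The other family members were sparse in astrocyte-like cells. Of 20 other connexins and pannexins only Gjc3 (connexin 29) had enough UMIs, at 23.8 and 29.8 CPM, and it was higher in E4 by 0.33 (0.11 to 0.54). Its level in oligodendrocyte-like cells was 719 and 684 CPM, and Gjb1 (connexin 32) was also highest there, at 314 and 252 CPM. Gjc1 (connexin 45) was a mural gene, at 706 and 497 CPM against 1.79 and 2.08 CPM in astrocyte-like cells. Of 11 other aquaporins, Aqp9 (19.8 and 21.1 CPM) was highest in astrocyte-like cells and Aqp11 (19.5 and 23.0 CPM) in endothelial-like cells, while Aqp1 belonged to the choroid plexus, at 72.9 and 84.3 CPM. None of 13 other inward rectifiers had enough UMIs in astrocyte-like cells. Kcnj13 was at 633 and 712 CPM in choroid plexus-like cells, and Kcnj8, of the ATP-sensitive channel of pericytes, at 1182 and 1057 CPM in mural-like cells.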

How the data were processed

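Per the labels and the matrix headers, the authors aligned droplet libraries to mm10 with Cell Ranger (6.1.2 for E3, 6.1.1 for E4) and deposited raw UMI counts per gene and barcode, with no normalization. By default Cell Ranger counts sense reads, so the antisense gene that overlaps Aqp4 on the other strand is counted apart. Barcodes were kept if they held 50 to 50000 UMIs, no more than 30% of them mitochondrial. Counts per cell were scaled to 10000 and log-transformed, and 2000 variable genes, without the 9 genes, were reduced to 20 principal components. A graph of 15 neighbours was clustered with leidenalg 0.10.2 at resolution 1, both libraries together and without batch correction.

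A cluster was named from markers when at least 3 were 2-fold higher and seen in at least 20% of cells. Shallow clusters (median depth below the library median divided by 3) stayed unnamed when none of their markers was among their 10 leading genes. Clusters that passed 2 classes at 75% or more were called mixed, or doublets if under 250 cells, and astrocyte sub-clusters led by other classes were left out. These thresholds, and the exemption of oligodendrocyte and precursor lists from each other, were chosen once cluster profiles were known. Left-out sub-clusters held 7.55% (E3) and 5.75% (E4) of cells, and unnamed clusters 6.75% and 6.91%. Doublets were scored after the principle of Scrublet for an alternative only (3.76% and 5.09% of cells).

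Counts were summed per class and library, divided by the class total and given as CPM. A ratio needed 200 UMIs over both libraries, and a ranking of classes 500 UMIs and classes of at least 100 cells. Genes were called apart at a log2 ratio of 0.32 between genotypes and at 1.5-fold between regions. Intervals are exact Poisson, or from the binomial split of UMIs, at 95%. Gene positions are from GENCODE vM21 and windows before gene starts from RefSeq, which matched 8 of the 9 genes. The named genes were the 9 genes, per list the 4 of highest astrocyte-like level and any called apart, the 3 genes most like each in pattern, and each gene at 3 times the marker median. A few genes that this rule or the sub-clusters would name are not reported here. Connexins, aquaporins and rectifiers named for other classes, and the sub-clusters described, were chosen after their values were seen. The genes and lists were chosen with earlier results of these data known. The study named astrocyte clusters partly by Aqp4 and Gja1, and its cell labels were not used here.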

Additional observations from a re-analysis of the deposited data

Results flagged for a closer look

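Gja1 differed in direction between classes, with counting intervals on opposite sides of 0: the log2 ratio of E4 over E3 was 0.11 in astrocyte-like and -0.53 in choroid plexus-like cells, and the difference was not tested over mice. The choroid plexus-like level was 39.5 (E3) and 27.3 CPM (E4), and the summed astrocyte naming genes of that class went the same way, from 671 to 507 CPM.

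Kcnj10 was high in a cluster outside the named classes. This cluster of 550 E3 and 584 E4 shallow cells, with median UMI counts of 860 and 746, held the astrocyte naming genes at a median of 89.9% and 96.8% of their astrocyte-like level, but Kcnj10 at 226% and 213%. Kcnj10 was among the genes that led the cluster, and its level there was 876 (E3) and 774 CPM (E4). Non-telencephalic astrocyte-like cells held it at 693 and 590.1 CPM, and their sub-cluster that, like this cluster, had Bc1, Gria1 and Scd1 among its leading genes held 929 and 794 CPM, so the level was not particular to this cluster. The part of the low depth was not tested.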

How the results depend on the processing

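The top class of each of the 9 genes was the same under all 8 alternatives tried for levels (doublets left out, a stricter cell filter, other totals, thinning, per-cell means, Leiden resolutions 0.5 and 2, and the 9 genes among the variable genes), and the 3 genes called between regions numbered 3 under all 6 tried there. The number of genes called apart between genotypes was 1, and 0 with at least 1000 UMIs and at most 15% mitochondrial UMIs, at resolution 0.5, for cells with at least 2 Aldoc UMIs and with sub-clusters weighted alike. Gjb6 was 0.32, 0.32, 0.28 and 0.27 there, close to the limit, and 0.27 to 0.37 over all 10 alternatives. Genes higher in E4 numbered 4 to 8. In endothelial-like cells, leaving out the cluster with astrocyte markers, chosen after seeing the data, turned Hepacam to -0.01 and Gjb6 to -0.04. Of 89 single ratios in astrocyte-like cells 18 left their main interval, the widest range being that of Kcnj10 (-0.22 to 0.03). Leaving out the oligodendrocyte-marked sub-cluster, also chosen after seeing the data, turned the regional difference of Mlc1 to -0.08 and -0.04. The causes were not tested. No paired analysis was possible because there is 1 library per genotype. Gjb2 and Kcnj16 have the fewest UMIs, which limits what can be said of them.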

Other observations

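Cells that looked astrocytic but were shallow were kept apart from the class. One sub-cluster (769 cells of E3, 682 of E4), with median UMI counts of 784 and 760 and Mbp and Ttr among its leading genes, held the astrocyte naming genes at a median of 97.5% and 99.2% of the astrocyte-like level. Mlc1 was at 139.7% and 154% of its astrocyte-like level in it, while Aqp4 was at 66.4% and 68.5%, Gja1 at 60.3% and 65.1% and Gjb6 at 62.3% and 52.3%. In the shallow cluster with high Kcnj10, Mlc1 was also above its astrocyte-like level, at 120% and 155%, and Gja1 below it, at 68.7% and 66.9%.

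Astrocyte-like cells thinned to 1000 UMIs showed a median of 3 of the 9 genes, and 2.64% of E3 and 2.02% of E4 cells showed none. Over the 36 pairs in both libraries, the share of cells with both genes was 0.82 to 1.56 times the product of their separate shares, with a median of 1.05. The highest value, that of Dag1 with Gjb2 in E3, rested on 0.46% of cells, and the pair was at 1.30 in E4. Kcnj16 with Gjb2 was at 1.52 in E3 and 0.83 in E4, with both seen in 0.25% and 0.15% of cells. Aqp4 and Gja1 were seen together in 51.4% of E3 cells, against a product of 49.6%.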
